A study of Caenorhabditis elegans with 2 samples.

Results

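Of 2786 ATTF-3 peaks, 275 lay on the X chromosome, 9.87% of the list that combines the 2 biological replicates. The 275 were selected on a scaled irreproducible discovery rate (IDR) score of 540 or more, which stands for an IDR of about 0.05 or less, and on lying on X. IDR rates how consistently the replicates rank a peak. These scores chose the members, and the signals come from the same list, so both are given below as descriptions. Of the X peaks, 155 of 275 (56.4%, 95% Wilson interval 50.5 to 62.1%) were also in the authors' conservative list, which ends at an IDR of 0.01; of the 2511 autosomal peaks, 1582 (63.0%, 61.1 to 64.9%) were.

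The values came from chromatin immunoprecipitation with sequencing of whole young adult Caenorhabditis elegans, a nematode worm, aged 63 hours and synchronised by starving bleached cultures as L1 larvae. All worms were of strain RW12296, in which CRISPR had inserted a TY1::EGFP::3xFLAG tag at attf-3 itself, on chromosome III, and the tagged protein was pulled down through its GFP. There was 1 group, of 2 separate biosamples, so the design holds no contrast between conditions. A peak from whole worms does not show in which tissue the protein was bound, and the labels do not give the sex of the worms. The lists hold no read counts, so depth is unknown, and every interval here covers counting error over peaks or genes only. No test of X against the autosomes was made, since score and chromosome chose the members and the peaks of a list are not replicates.

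The worm X is the sex chromosome: hermaphrodites carry a pair and males a single copy. In hermaphrodites a condensin-like dosage compensation complex binds along both X chromosomes and lowers their transcription, and it is loaded at X sites that often carry copies of the MEX motif, whose core letters include GCGCAGGG. The X is poor in genes expressed in the germ line and carries many transfer RNA (tRNA) genes, which RNA polymerase III reads from promoter elements within the gene, the A box and the B box. ATTF-3 belongs to proteins named for an AT-hook, a short DNA-binding motif.

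The sequences that follow run from 50 bases before a summit to 50 after it, on ce11, from the RefSeq copy of that assembly, and show the kinds of X site that the results turn on. The first set is the 4 strongest X promoter peaks, all with the letters ACGACACT, in capitals, each followed by the letters ccg. ACGACACT is the 8-base word with the largest excess in the autosomal promoter peaks, so the X peaks did not choose it.
F02C12.3 promoter, chrX:13396711-13396811, plus strand: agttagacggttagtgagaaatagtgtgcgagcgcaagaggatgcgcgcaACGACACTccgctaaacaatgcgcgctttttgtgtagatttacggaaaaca
acl-1 promoter, chrX:15849499-15849599, plus strand: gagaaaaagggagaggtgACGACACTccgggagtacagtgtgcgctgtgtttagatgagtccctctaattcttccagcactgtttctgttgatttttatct
T20F7.1 promoter, chrX:16872646-16872746, plus strand: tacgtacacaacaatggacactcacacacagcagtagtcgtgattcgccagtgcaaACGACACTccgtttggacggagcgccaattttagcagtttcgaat
asb-2 promoter, chrX:4469450-4469550, plus strand: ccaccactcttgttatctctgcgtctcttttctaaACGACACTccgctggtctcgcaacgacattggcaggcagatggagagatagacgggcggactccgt

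A second set shows the most abundant annotated kind of X site outside promoters, a tRNA gene, with the transcribed gene in capitals, and 2 tandem repeat sites, with 1 repeat unit of 26 and of 25 bases in capitals.
tRNA-Ala gene F15G9.t1 in an intron of him-4, chrX:9743563-9743663, plus strand: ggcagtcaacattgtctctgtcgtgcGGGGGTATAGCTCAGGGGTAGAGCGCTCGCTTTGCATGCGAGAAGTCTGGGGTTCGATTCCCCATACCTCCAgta
repeat nearest Y7A5A.7, chrX:15811060-15811160, plus strand: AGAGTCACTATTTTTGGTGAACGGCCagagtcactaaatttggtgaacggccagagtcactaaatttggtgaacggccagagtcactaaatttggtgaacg
repeat nearest hex-5, chrX:14909091-14909191, plus strand: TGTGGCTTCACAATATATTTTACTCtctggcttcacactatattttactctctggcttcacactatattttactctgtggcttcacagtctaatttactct

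Another set shows 5 of the 10 X peaks that hold GCGCAGGG on either strand, in capitals; these 5 were chosen after the windows were seen because the bases just outside the motif are also alike.
nearest gtr-1, chrX:806637-806737, plus strand: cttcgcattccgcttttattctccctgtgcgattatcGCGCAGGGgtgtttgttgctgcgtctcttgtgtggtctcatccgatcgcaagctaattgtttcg
nearest W02H3.3, chrX:11094144-11094244, plus strand: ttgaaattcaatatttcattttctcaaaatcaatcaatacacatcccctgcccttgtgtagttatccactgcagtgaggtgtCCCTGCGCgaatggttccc
nearest nspc-17, chrX:14525863-14525963, plus strand: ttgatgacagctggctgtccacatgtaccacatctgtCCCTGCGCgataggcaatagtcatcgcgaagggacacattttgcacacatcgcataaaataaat
in an intron of mom-1, chrX:6296527-6296627, plus strand: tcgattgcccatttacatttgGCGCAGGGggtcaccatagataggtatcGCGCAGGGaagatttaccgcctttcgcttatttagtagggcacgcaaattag
nearest F20B6.9, chrX:4209227-4209327, plus strand: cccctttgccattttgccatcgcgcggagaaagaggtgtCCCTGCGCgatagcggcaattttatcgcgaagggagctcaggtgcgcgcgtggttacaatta

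X carried peaks at a lower density than any autosome. There were 15.5 peaks per megabase on X (95% Poisson interval 13.7 to 17.5) and 30.4 per megabase on the autosomes together (29.2 to 31.6), a ratio of 0.51. Among the autosomes the density was 36.2 on I, 32.3 on II, 35.9 on III, 30.4 on IV and 21.4 on V (19.4 to 23.4), so V came closest to X. In the replicates' own lists X had 6.32 and 8.92 peaks per megabase in replicates 1 and 2, against 15.4 and 16.8 on the autosomes. Both replicates therefore placed X lowest, with ratios of 0.41 in replicate 1 and 0.53 in replicate 2.

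Gene number changed this order. Per 1000 protein-coding genes X had 100.7 peaks and the autosomes 146, but chromosome V, with more genes per megabase, had 89.5, below X. When only summits within 500 bp of a coding gene's 5′ end were counted, X was again lowest, with 30.8 such promoter peaks per 1000 genes, against 72.1 on the autosomes and 42.5 on V. In replicate 1 the same rate was 15.01 on X and 42.7 on the autosomes, and in replicate 2 it was 17.6 on X and 45.8 on the autosomes.

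**Figure D1:**
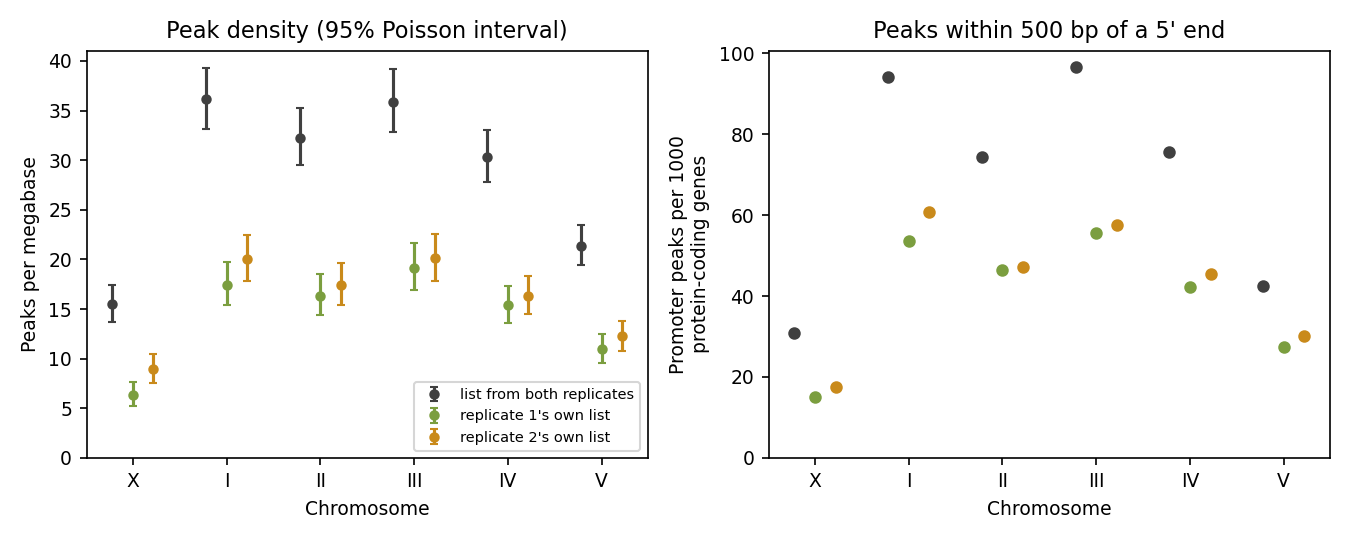
Peaks per megabase with 95% Poisson intervals (left) and promoter peaks per 1000 protein-coding genes (right), by chromosome, in the list from both replicates and in each replicate's own list. X is the lowest chromosome in every list on both scales; V is the nearest to it, at 21.4 against 15.5 peaks per megabase in the combined list.

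Along X the peaks were spread from end to end. In 10 equal stretches, from the left end, there were 30, 21, 25, 23, 29, 17, 28, 35, 38 and 29 peaks, with protein-coding genes numbering between 199 and 327 per stretch. The stretch with 38 peaks held 18 of the 84 promoter peaks and 283 of the 2731 X-linked protein-coding genes. The one before it, with 35 peaks, held 16 of the 72 peaks at tRNA genes. That stretch also held 53 of the 276 X-linked tRNA genes, so its tRNA peaks were near its share of those genes. The median distance between neighbouring summits was 38312 bp and the longest was 414925 bp. Of the 275 peaks, 23 overlapped a stronger X peak, and joining overlaps left 251 separate regions.

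A smaller share of X peaks than of autosomal peaks lay at promoters. A larger share lay at tRNA genes, at tandem repeats and far from coding 5′ ends. Of the X summits, 84 of 275 (30.5%, 25.4 to 36.2%) were at promoters in this sense, against 1243 of 2511 autosomal summits (49.5%, 47.5 to 51.5%). In replicate 1 the shares were 36.6% on X and 57.8% on the autosomes, and in replicate 2 they were 30.4% on X and 56.9% on the autosomes. Summits over 2000 bp from the 5′ end of every protein-coding gene made up 38.9% of X peaks (33.3 to 44.8%). On the autosomes they made up 24.1% (22.4 to 25.8%). These include summits in introns and at tRNA genes. X also has fewer protein-coding genes, 154 per megabase against 209 on the autosomes. The share of all positions that far from a 5′ end was not computed. Outside any protein-coding gene stood 72.4% of X summits and 60.2% of autosomal summits. Summits inside a tRNA gene count as outside here unless a protein-coding gene also holds them.

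Within genes, 50 X summits (18.2%, 14.1 to 23.2%) were in introns, against 22.2% of autosomal summits (20.6 to 23.9%), intervals that overlap; in the other ranked list of the series the order turned, at 23.2% on X and 21.9% on the autosomes. Coding exons held 17 X summits (6.18%, 3.90 to 9.68%), against 11.7% of the autosomal ones. The 5′ UTR held 9 X summits, 3.27%, against 3.62% of autosomal summits. The 3′ UTR held none of 275 X summits, which allows a share of up to 1.09%, and 1.87% of autosomal summits.

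**Figure D2:**
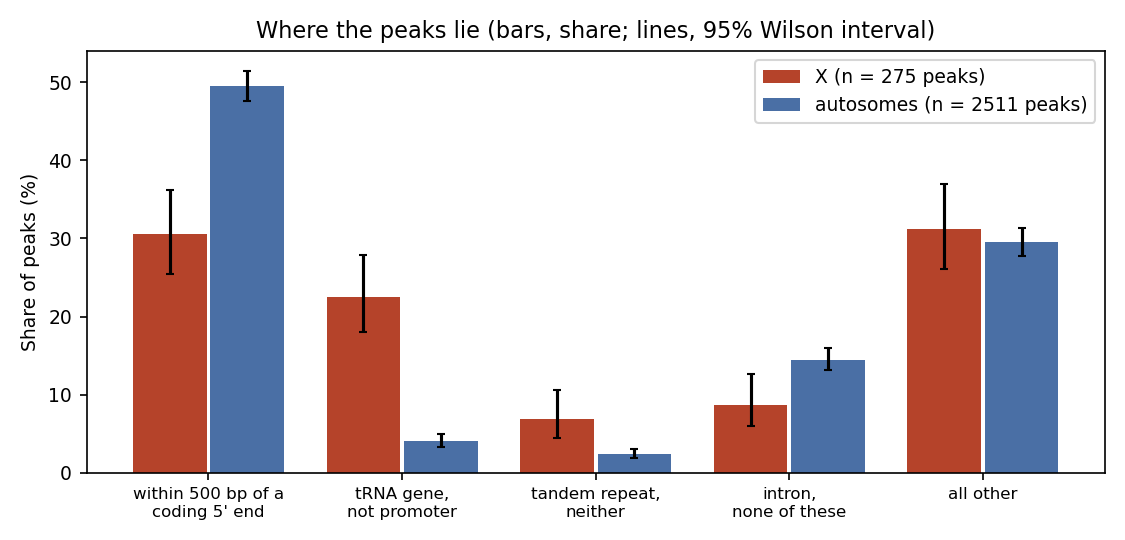
Share of X peaks and of autosomal peaks in 5 kinds that do not overlap, with 95% Wilson intervals; a peak is counted in the first kind it meets, from left to right. Promoters took 30.5% of X peaks and 49.5% of autosomal peaks, and tRNA genes away from promoters took 22.5% of X peaks and 4.06% of autosomal peaks.

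The promoter share of X was below that of the autosomes among strong, middling and weak peaks, though among the weak ones the intervals overlap. With the whole list split by signal into 3 parts, promoters took 41.1% of the 73 X peaks in the strongest part (30.5 to 52.6%), against 64.3% of the 855 autosomal peaks. In the middle part they took 25.3% on X and 48.4% on the autosomes, and in the weakest part 28.04% on X (20.4 to 37.2%) and 35.2% on the autosomes (32.0 to 38.5%).

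Where an X peak was at a promoter, its summit stood a little further upstream. The median position was 202 bp upstream of the 5′ end for the 84 X promoter peaks, with quartiles of −284 and −42.2 bp, and 138 bp upstream for the 1243 autosomal ones. Upstream summits made up 78.6% on X and 79.1% on the autosomes. Few X promoter peaks served more than 1 gene: 5 of 84 (5.95%, 2.57 to 13.2%) had at least 2 such 5′ ends within 500 bp of the summit, against 354 of 1243 autosomal promoter peaks (28.5%, 26.04 to 31.1%). Close 5′ ends are also rarer on X, where 5.16% of protein-coding genes had another 5′ end within 500 bp, against 12.2% of autosomal genes.

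**Figure D3:**
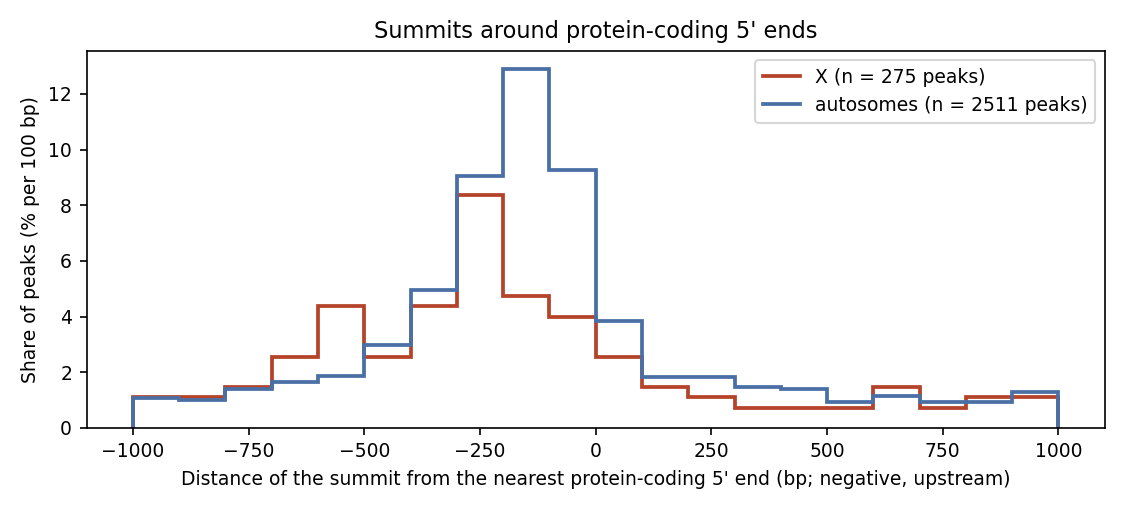
Share of summits per 100 bp around the nearest 5′ end of a protein-coding gene, for X and for autosomal peaks; negative distances are upstream. The X curve peaks further upstream than the autosomal one, with medians of −202 and −138 bp among the summits within 500 bp.

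A summit within 500 bp marked 85 of 2731 X-linked protein-coding genes, 3.11% (2.52 to 3.83%), against 8.58% of 17242 autosomal genes (8.17 to 9.01%). The share was 1.65% of X-linked genes and 5.51% of autosomal genes in replicate 1, and 1.83% of X-linked genes and 5.98% of autosomal genes in replicate 2. X-linked genes thus had peaks less often than autosomal genes in each replicate by itself.

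The strongest X peak stood 212 bp upstream of F02C12.3, at a signal of 1799.97 in the combined list, 846 in replicate 1 and 947 in replicate 2. Next among promoters came acl-1, an acyltransferase of phospholipid synthesis, at 1171 in the combined list, with 544 in replicate 1 and 623 in replicate 2. T20F7.1 had 950.4, with 471 and 475 in replicates 1 and 2. All 3 were past the score of 540 in both replicates' own lists, at similar signals.

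Other strong X promoter peaks stood at genes of known function. asb-2, a subunit of the mitochondrial ATP synthase, had a signal of 936 in the combined list, 431 in replicate 1 and 503 in replicate 2. gas-1, a core subunit of respiratory complex I, had 515 in the combined list, 229.7 in replicate 1 and 282 in replicate 2. Lower on the list were sdha-1, the flavoprotein of complex II, at 89.8, and ucr-2.2, of complex III, at 76.1. Neither peak passed the score threshold in either replicate's own list. The sdha-1 peak was in the conservative list and the ucr-2.2 peak was not. The sdha-1 peak is also the one given below for D2021.6, a small nucleolar RNA gene, so it cannot be assigned to sdha-1 alone. gcc-1, a Golgi coiled-coil protein, had 541, apm-3, the medium subunit of the AP-3 adaptor, had 476, and vps-52, of the GARP tethering complex, had 426. No enrichment test was made, and all of these but sdha-1 and ucr-2.2 are named for the strength of their peaks. Those 2 were chosen after their values were seen. X-linked respiratory chain genes without a peak were not counted, so nothing is read about that group of genes.

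The remaining genes nearest the 25 strongest X peaks were read from the same list. nucb-1, a nucleobindin, had a signal of 887, with its summit 228 bp upstream. A single peak of 757 served Y34B4A.2, whose 5′ end was 44 bp from the summit, and rga-8, whose intron held the summit. Another, of 657, stood between flwr-1, a relative of the fly calcium channel Flower, and tbc-1, a TBC domain protein. F40F4.7 had 676, H40L08.1 had 666, bra-1, a homologue of a BMP receptor-associated protein, had 549, and F54B11.5 had 538. F59D12.5 had 440.3, F11C1.7 had 425 and serp-1.1 had 334. All of these peaks were in the conservative list and in both replicates' own lists.

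The letters ACGACACT, on either strand, went with the strongest X promoters. They were in the window, 50 bases on either side of the summit, of 10 of 84 X promoter peaks (11.9%, 6.60 to 20.5%) and of 105 of 1243 autosomal promoter peaks (8.45%, 7.03 to 10.1%). Of all windows of that length, 0.171% on X and 0.182% on the autosomes held them. The 10 X promoter peaks with the letters had a median signal of 777, and the 74 without them 86.1; on the autosomes the medians were 792 with and 108 without. Among the 10 were F02C12.3, acl-1, T20F7.1, asb-2, nucb-1, H40L08.1, gas-1, apm-3 and F59D12.5, and the weakest was hsp-3, an endoplasmic reticulum Hsp70 chaperone, at 86.8. GC content was also higher at X promoters, with a median of 50.5% at X promoter peaks and 45.5% at autosomal ones, while the median of all windows was 34.7% on X and on the autosomes.

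tRNA genes made up a larger share of the X peaks than of the autosomal ones. Of the X summits, 72 of 275 (26.2%, 21.3 to 31.7%) were within 200 bp of a tRNA gene, against 133 of 2511 autosomal summits (5.30%, 4.49 to 6.24%). Of these 72, 23 lay in introns of protein-coding genes and made up 23 of the 50 X intron peaks, and 10 were also promoter peaks.

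Counted per gene, the order was the other way round. X holds 276 tRNA genes and the 5 autosomes together 336, and a summit was within 200 bp of 77 of the X-linked ones, 27.9% (22.9 to 33.5%), against 136 of the autosomal ones, 40.5% (35.4 to 45.8%). By chromosome the autosomal shares were 42.4% on I, 45.6% on II, 54.7% on III, 29.6% on IV and 33.3% on V, so X did not stand apart from IV and V. In replicate 1 the shares were 11.2% of X-linked and 20.8% of autosomal tRNA genes; in replicate 2 they were 18.1% of X-linked and 21.7% of autosomal tRNA genes, with overlapping intervals.

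**Figure D4:**
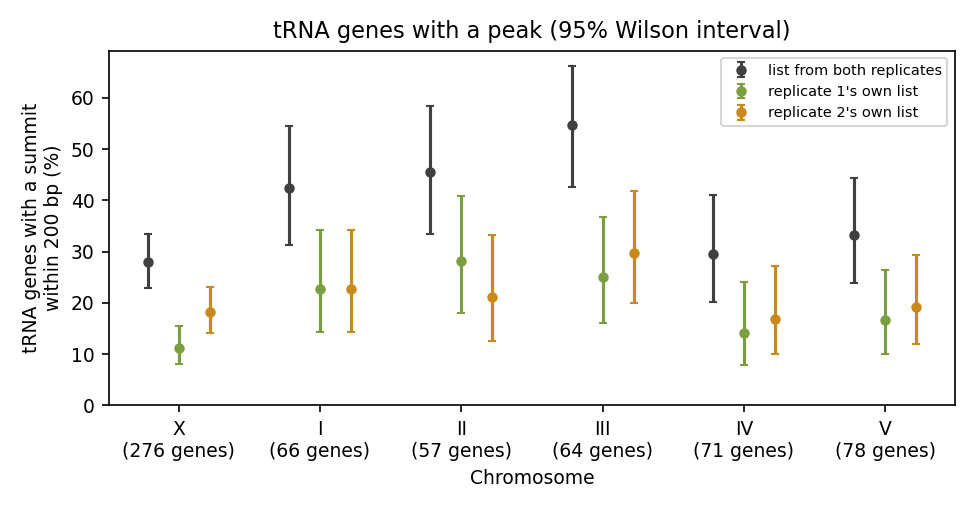
Share of tRNA genes with a summit within 200 bp, by chromosome, with 95% Wilson intervals, in the list from both replicates and in each replicate's own list. X, with 276 tRNA genes, stands at 27.9% in the combined list, next to IV at 29.6%, and below III at 54.7%.

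Of the X tRNA peaks, all chosen for a summit within 200 bp of the gene, most had it inside the gene. Their summits had a median position 12.5 bp downstream of the 5′ end of the tRNA gene, with quartiles of −5.25 and 37.8 bp, and 45 of 72 (62.5%) were inside it; on the autosomes the median was 19 bp downstream and 53.4% were inside. The letters GTTCGANNC of the B box, on either strand, were in the window of 22 of 72 X tRNA peaks (30.6%, 21.1 to 41.95%) and of 33.8% of autosomal tRNA peaks, against 0.677% of all X windows.

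The strongest X tRNA peaks were of moderate signal. The peak at a leucine tRNA gene, C04E7.t1, had a signal of 299.9 in the combined list, 134 in replicate 1 and 173 in replicate 2. Its summit stood 225 bp upstream of the 5′ end of sor-3. This peak is therefore also a promoter peak of sor-3 and cannot be assigned to the tRNA gene alone. The alanine tRNA gene F15G9.t1, in an intron of him-4, the hemicentin gene, had 220.1, with 106 in replicate 1 and 119 in replicate 2. The glycine tRNA gene M02F4.t1 had 188. A second tRNA gene, F15G9.t2, was also within 200 bp of the summit at F15G9.t1, and M02F4.t2 of that at M02F4.t1. Neither peak can therefore be assigned to the named gene alone. The asparagine tRNA gene F41D9.t3, in an intron of the sulfate permease family gene sulp-3, had 180.5. The summits at C04E7.t1, M02F4.t1 and F41D9.t3 lay outside the named gene, and that at F15G9.t1 lay inside it. The median over the 72 was 93.7 on X, and over the 133 it was 100.1 on the autosomes, and 2.85 was the lowest X value, at a peak that overlaps a stronger one.

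Of the 20 isotypes with X-linked genes, 18 had at least 1 X gene with a peak. The highest counts were 8 of 20 glycine, 8 of 20 proline and 7 of 17 leucine tRNA genes, beside 27.9% of all X-linked tRNA genes. Glutamine, at 6 of 15, had the same share as glycine and proline. None of 6 phenylalanine or of 5 tryptophan tRNA genes had one. With so few genes of each isotype, nothing is read from single isotypes. Identical gene copies can share reads, and how the authors placed such reads is not given in the sources used here. Among X-linked tRNA genes whose sequence occurs once, 10 of 57 had a peak (17.5%, 9.82 to 29.4%), against 32 of 86 autosomal ones (37.2%, 27.7 to 47.8%). With 10 or more identical copies, 45 of 154 X-linked genes (29.2%) and 69 of 163 autosomal genes (42.3%) had one.

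Other small RNA genes were rarely covered on X. A summit was within 200 bp of 3 of 33 X-linked genes for small nucleolar RNAs (9.09%, 3.14 to 23.6%), which guide RNA modification, and of 74 of 313 autosomal ones (23.6%, 19.3 to 28.7%). The 3 were D2021.6, at a signal of 89.8, F54G2.4, at 74.5, and C53B7.8, at 62.4, and none was past 540 in either replicate's own list. No X peak was within 200 bp of any of 3 small nuclear RNA genes, 162 piRNA genes or 74 microRNA genes, which allows shares of up to 1.85% of the piRNA genes and 4.05% of the microRNA genes; on the autosomes 29 of 126 small nuclear RNA genes (23.0%), 16 of 15201 piRNA genes (0.105%) and 7 of 187 microRNA genes (3.74%) had a summit. The autosomal piRNA and microRNA shares were below the limits for X, so no difference was detectable. Replicate 2's own list held a summit at 1 of the 162 X-linked piRNA genes.

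Tandem repeats made up a small class that reached the top of the X list. A window matched itself at 90% or more when moved by 5 to 50 bases in 19 of 275 X peaks (6.91%, 4.47 to 10.5%) and in 62 of 2511 autosomal peaks (2.47%, 1.93 to 3.15%), against 0.536% of X windows sampled along the chromosome. None of the 19 was at a promoter. The strongest, 6938 bp upstream of Y7A5A.7, was the second peak of X, at a signal of 1705 in the combined list, with 875 in replicate 1 and 960.05 in replicate 2.

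Several of these repeat peaks were stronger in replicate 2. The one nearest Y102F5A.1 had 765 in the combined list, with 254 in replicate 1 and 535 in replicate 2, and the one nearest hex-5, a hexosaminidase gene, had 366, with 99.1 in replicate 1 and 265 in replicate 2. The signal in replicate 2 divided by that in replicate 1 had a median of 1.35 over the 18 X repeat peaks with a value in both, 1.12 over 82 X promoter peaks and 1.15 over 60 X tRNA peaks away from promoters; the autosomal medians were 1.51, 1.08 and 1.04.

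Other strong X peaks outside protein-coding genes held less regular repeats that fell short of the 90% match, so they are not among the 19. The peak 1476 bp upstream of elk-2, with a self-match of 83.8%, had a signal of 1443 in the combined list, 292 in replicate 1 and 1167 in replicate 2. Beside C24H10.4 stood a pair of peaks with self-matches of 73.0% and 79.7% and signals of 464 and 433, with 143 and 99.0 in replicate 1 against 322 and 325 in replicate 2. The peak nearest Y48D7A.1, with a self-match of 79.3%, had 333, with 86.8 in replicate 1 and 258 in replicate 2. All 4 were stronger in replicate 2.

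Several of the strongest repeat peaks were missing from the conservative list despite their scores. That list ends at a score of 830, which 166 X peaks reached, and 11 of these (6.63%, 3.74 to 11.5%) were not in it, against 72 of 1654 autosomal peaks (4.35%, 3.47 to 5.45%). The 11 included the X peaks of ranks 2, 3 and 8 by signal. All 11 lay outside protein-coding genes and none at a promoter. Of the 11, 7 held a tandem repeat, and 10 were over 50% soft-masked repeat in the reference. In 11 of 11 the score was past 540 in replicate 2's own list and in 9 of 11 it was in replicate 1's. Their signal in replicate 2 divided by that in replicate 1 had a median of 2.67 on X, and 1.73 over the 69 autosomal ones with a value in both. Per the deposited file descriptions the thresholded lists also drew on a file that the ranked lists do not name; its part in the absence of these peaks was not tested.

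Over the whole X list, mostly soft-masked peaks were less common than in the autosomal list. The masked share of X and of the autosomes as a whole was not computed, so this may hold for the chromosomes too. Over 50% of the peak was masked in 33 X peaks (12%, 8.67 to 16.4%) and in 24.5% of autosomal peaks (22.8 to 26.2%).

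The 2 strongest X intron peaks away from both promoters and tRNA genes shared a stretch of sequence with a promoter. The peak in T25D1.3 had a signal of 262, with 111 in replicate 1 and 163 in replicate 2, the peak in T22B7.8 had 221, with 105 in replicate 1 and 120.1 in replicate 2, and the peak 37 bp upstream of M02E1.3 had 299, with 141 in replicate 1 and 153 in replicate 2. The capitals below mark 25 bases that all 3 windows have in common without a difference, and the lower-case bases after them are also nearly the same; how the authors placed reads from such copies is not given in the sources used here.
M02E1.3 promoter, chrX:322436-322536, plus strand: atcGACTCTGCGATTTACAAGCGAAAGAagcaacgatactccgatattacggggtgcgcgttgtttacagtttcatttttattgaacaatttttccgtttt
T25D1.3 intron, chrX:16509757-16509857, minus strand: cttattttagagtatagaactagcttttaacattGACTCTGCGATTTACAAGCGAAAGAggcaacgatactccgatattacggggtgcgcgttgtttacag
T22B7.8 intron, chrX:5636152-5636252, plus strand: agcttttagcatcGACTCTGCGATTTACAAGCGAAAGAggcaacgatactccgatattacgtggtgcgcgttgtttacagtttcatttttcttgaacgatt

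The next such X intron peak, in aak-2, a catalytic subunit of AMP-activated kinase, had 127 and shared no such stretch. Sharing of at least 25 bases with another, separate X peak was seen in 98 of 275 X peaks (35.6%), in 64 of the 72 at tRNA genes, in 15 of the 19 repeats and in 6 of the 74 promoter peaks without a tRNA gene.

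The core letters of the MEX motif were found almost only in X peaks. GCGCAGGG, on either strand, was in the window of 10 of 275 X peaks (3.64%, 1.99 to 6.56%) and of 1 of 2511 autosomal peaks (0.0398%, 0.00703 to 0.225%). Along the chromosomes the letters were in 68 of 175435 X windows (0.0388%) and in 215 of 817362 autosomal windows (0.0263%). The letters were thus also more common in X windows than in autosomal windows, by far less than in X peaks against autosomal peaks.

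Of the 10, 8 stood away from promoters, where they made up 4.19% of 191 X peaks (2.14 to 8.05%), against 0.0789% of 1268 autosomal peaks. The strongest of these 8, 3909 bp downstream of the 5′ end of gtr-1, had a signal of 160.1 in the combined list, 67.5 in replicate 1 and 93.6 in replicate 2. The one nearest W02H3.3 had 145, with 77.2 in replicate 1 and 64.4 in replicate 2. The one 732 bp upstream of nspc-17 had 138, with 55.7 in replicate 1 and 82.5 in replicate 2, and it passed 540 in replicate 2's own list only. The window in an intron of mom-1, the Porcupine homologue of Wnt secretion, held the letters at 2 places and had a signal of 110.01, with 53.6 in replicate 1 and 59.7 in replicate 2.

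The other 4 were weaker. A peak in a coding exon of F19H6.6 had 107, with 44.1 in replicate 1 and no overlapping peak in replicate 2. The one 1792 bp upstream of F20B6.9 had 91.9, with 40.6 in replicate 1 and 51.3 in replicate 2. The one nearest T26C11.2 had 70.7 and was the only one of the 10 outside the conservative list. The last, in an intron of lin-14, a heterochronic gene, had 6.51 and overlapped a stronger peak of 88.2 in the same intron. Of these 8, gtr-1, W02H3.3 and nspc-17 were above the upper quartile of X signals, 126, and none was among the 45 strongest X peaks.

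The other 2 were promoter peaks, at gcc-1 and apm-3, both with the bases gttgttta next to the motif. An overlapping word, TCGCGCAGG, was searched after the X windows had been seen. It begins further left and lacks the last G of GCGCAGGG, so it can occur without those letters. The word was in 7 of 275 X peaks (2.55%, 1.24 to 5.16%) and in 0 of 2511 autosomal peaks, which allows up to 0.119%. In all, 42 X windows and 64 autosomal windows held it. The X peaks nearest F22H10.2, at a signal of 150.2, and hlh-29, at 118.2, held TCGCGCAGG without GCGCAGGG, so they are not among the 10. Whether the dosage compensation complex sits at these places was not measured in this series.

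Of the genes of the dosage compensation complex, sdc-1 and sdc-2, the 2 that lie on X, had no summit within 500 bp. The nearest X summits were 4360 bp upstream of sdc-1, at a signal of 70.5, and 36023 bp upstream of sdc-2, at 77.9. Over all X-linked genes the share with one was 3.11%, so nothing is read from this pair. Of the 8 autosomal genes, 4 had one, beside 8.58% of all autosomal genes: dpy-26, at 707, dpy-30, at 170, mix-1, at 102, and capg-1, at 89.8. dpy-21, dpy-27, dpy-28 and sdc-3 had none. Among the X-linked genes that count X chromosomes in sex determination, ceh-39, a ONECUT homeobox gene, had a peak of 86.02 at its promoter, with 39.2 in replicate 1 and 42.5 in replicate 2, past 540 in neither replicate's own list. fox-1, sex-1 and xol-1, the switch gene that they control, had none, nor did the autosomal her-1, tra-1, tra-2, fem-1, fem-2 and fem-3.

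The other gene lists held at most 2 X-linked genes with a peak each. The share was 3.11% of all X-linked genes and 8.58% of all autosomal genes. Several lists were above the X-linked share on X, on these small counts. X carries 2 of the genes for cytosolic ribosomal proteins, and neither had a peak, against 54 of 79 autosomal ones. None of 3 X-linked translation factor genes had one, against 12 of 35 autosomal ones. Nor did 2 X-linked cell cycle and replication genes, against 13 of 49 autosomal ones. Of muscle genes, 0 of 5 on X and 0 of 9 on the autosomes had one. Of chemoreceptor genes, 0 of 28 on X and 10 of 1143 on the autosomes did. No gene of the mitochondrial ribosome, proteasome, RNA polymerase and splicing, or germ line and small RNA lists lies on X.

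Among the lists with X members, 2 of 22 neuronal and synaptic genes had a peak: egl-17, which encodes a fibroblast growth factor, at 114.6, and unc-58, a potassium channel gene, at 94.5, both at tRNA genes in their first 500 bp. Nuclear hormone receptor genes had 2 of 23, nhr-25, the Ftz-F1 homologue, at 94.9, and nhr-35, at 89.7. A single peak each marked ceh-39 among 19 homeobox genes and nlp-53, at 75.5, among 34 neuropeptide and insulin genes. Another marked vit-2, a yolk protein gene, at 66.1, among 5 vitellogenin genes. Autosomal counts were 9 of 116 neuronal and synaptic, 3 of 246 nuclear hormone receptor and 2 of 54 homeobox genes. They were 1 of 106 neuropeptide and insulin genes and 0 of 1 vitellogenin genes. The list of collagen and cuticle symbols had 1 of 33 on X and 9 of 161 on the autosomes. The X-linked one was dpy-23, at 83.5, which is not a collagen but encodes a subunit of the AP-2 adaptor.

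X peaks were slightly weaker than autosomal ones. The median signal was 89.0 on X, with quartiles of 74.4 and 126, and 97.02 on the autosomes, with quartiles of 75.8 and 156. X held 1 of the 25 strongest peaks, 6 of the 100 strongest and 36 of the 500 strongest (7.20%), below its 9.87% of the whole list. In the replicates' own lists the median was 63.6 on X and 75.4 on the autosomes in replicate 1, and 67.9 on X and 77.7 on the autosomes in replicate 2.

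Over all kinds and strengths together, support from single replicates was lower on X, though the intervals for support by both overlap. Of the X peaks, 81 (29.5%, 24.4 to 35.1%) overlapped a peak past 540 in both replicates' own lists, against 888 autosomal peaks (35.4%, 33.5 to 37.3%). In neither list were 132 X peaks (48.0%, 42.2 to 53.9%) and 39.7% of autosomal peaks (37.8 to 41.6%). Of the rest, 45 X peaks were in the list of replicate 2 alone and 17 in that of replicate 1 alone. With the whole list split by signal into 3 parts, support by both was not lower on X in the stronger parts. It was 90.4% on X and 88.4% on the autosomes in the strongest part, and 13.7% and 11.3% in the middle part. In the weakest part it was 1.87% on X and 4.62% on the autosomes. By kind, both replicates supported 31 of 84 X promoter peaks (36.9%), against 45.4% of autosomal ones, and 3 of 24 other X intron peaks (12.5%), against 26.1%. The remaining kinds were close: 18 of 62 X tRNA peaks away from promoters (29.03%), against 27.5% of autosomal ones, 9 of 19 X repeat peaks (47.4%), against 46.7%, and 23.3% of all other peaks on X and on the autosomes.

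The replicates' signals followed each other across X peaks. Over the 261 X peaks with a value in both ranked lists, the Spearman rank correlation was 0.64, and over 2443 autosomal peaks it was 0.73; peaks of a list share libraries, so this is a description without a test. The peaks with the highest values, all promoters or repeats, lay close to the line of equal signal in the case of promoters, and above it, with more signal in replicate 2, for several repeats.

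**Figure D5:**
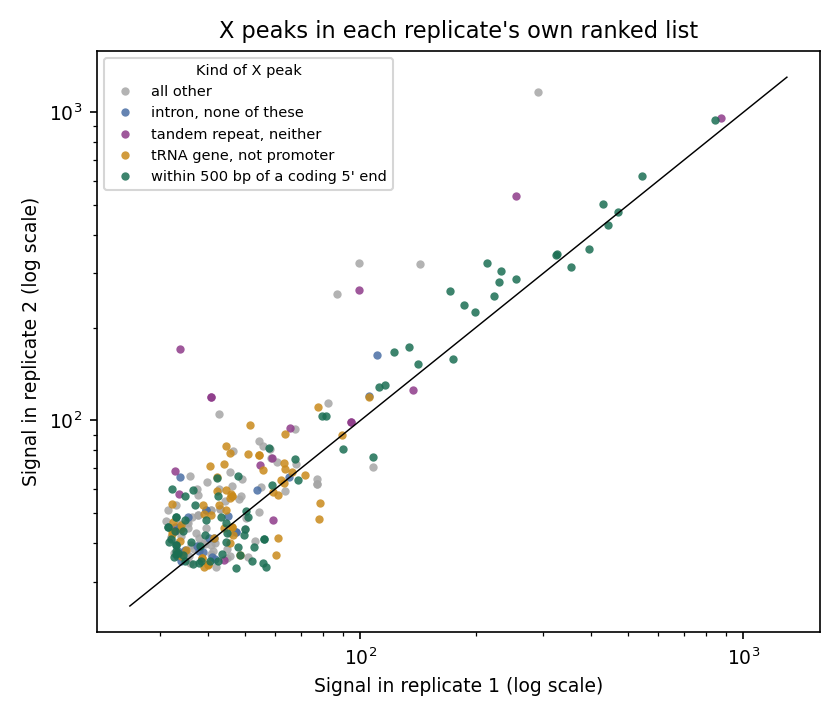
Signal in replicate 2 against signal in replicate 1 for the 261 X peaks with a value in both replicates' own ranked lists, coloured by kind, on log scales; the line marks equal signal. Promoter peaks follow the line up to F02C12.3, at 846 and 947, while elk-2, a repeat counted under all other, stands far above it at 292 and 1167.

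Near the threshold the X peaks were weak and of mixed kinds. Just inside stood the promoter peak of taf-11.1, with a score of 540 and a signal of 64.1, a tRNA peak in an intron of C52G5.2, with 543 and 69.7, and a repeat nearest Y81B9A.2, with 547 and 89.6. Just outside stood peaks nearest C17H11.4, with a score of 539 and a signal of 74.3, apl-1, the worm homologue of the amyloid precursor protein, with 537 and 68.1, and F28H6.7, with 536 and 80.3. Signals on the 2 sides of the threshold overlapped.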

How the data were processed

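Peak lists from 2 biological replicates of 1 group were used, grouped by the labels; the antibody field of the labels names attf-3 and the description anti-GFP. Per the deposited file descriptions, the authors called peaks on ce11 from alignments and a control alignment; which aligner and caller they used is not given in the sources used here. Each deposited list gives a scaled IDR score, capped at 1000, a signal value of the authors' caller on an unstated scale, and a summit offset; the ranked lists also give the −log10 of the IDR, per the authors' column order. Ranked lists of the series hold 4 unnamed columns for each replicate, which were not used. Replicate values came from each replicate's own ranked list, as the strongest peak overlapping by at least 1 bp.

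Of 8 deposited lists, the ranked one that contains all 1737 conservative peaks was cut at a score of 540. Genes came from Ensembl release 115 for WBcel235, the same assembly as ce11. Sequence, soft masking and tRNA isotypes, found for 607 of 612 tRNA genes, came from RefSeq. A promoter peak has its summit at most 500 bp from a coding gene's 5′ end, and small RNA genes were widened by 200 bp. Motifs were counted in windows of the summit and 50 bases on either side, on both strands. Shares carry 95% Wilson and rates 95% exact Poisson intervals; a count of 0 allows 3 counts of the total. Genes named were those nearest the 25 strongest X peaks, the dosage compensation and sex determination genes, up to 4 members with a peak of each of 17 lists, the strongest small RNA and far peaks, and the 3 peaks on either side of the threshold; sdha-1, ucr-2.2 and hsp-3 were chosen after their values were seen. Members, lists and rules were chosen with earlier results of these data known. In a check on simulated peaks, 690 of 690 planted promoter and tRNA summits were recovered. Python 3.11.15, numpy 2.4.6, scipy 1.17.1 and matplotlib 3.10.9 were used. Alternatives were the conservative list, the other ranked list of the series, each replicate's own list, joined overlaps, other windows, and 3 added after seeing the data.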

Additional observations from a re-analysis of the deposited data

How the results depend on the processing

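Values here are X divided by autosomes for density and signal, and X minus autosomes in percentage points for shares. Every comparison kept its direction in all alternatives run except the intron share, at −4.04 points, which became 1.304 points in the other ranked list of the series; with only summits over 500 bp from a 5′ end it was −1.97, and the cause was not tested. With either replicate left out, so in the other replicate's own list, there were 112 to 158 X peaks, a density ratio of 0.41 to 0.53, and differences of −26.5 to −21.2 points at promoters, −6.999 to −6.12 in introns, 11.1 to 14.6 at small RNA genes, −4.15 to −3.86 in genes with a peak and 3.41 to 5.06 for GCGCAGGG, with a median signal ratio of 0.84 to 0.87. The conservative list gave 155 X peaks, −26.5 points at promoters, 20.3 at small RNA genes, −4.74 in genes with a peak, −6.71 for support by both replicates, 5.74 for GCGCAGGG and a signal ratio of 0.88; the other ranked list gave a signal ratio of 0.87. Per 1000 genes the density ratio was 0.69. Small RNA genes without widening gave 13.02 points. Windows of 250 and 1000 bp gave −3.83 and −6.37 points of genes with a peak. The replicates' thresholded lists gave −8.48 points for support by both. Leaving out the peaks past the conservative score that its list does not hold, an alternative added after seeing the data, left 264 X peaks and moved no comparison by more than the spread between the replicates' lists or, for support by both replicates, beyond its counting interval.

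Depth is unknown, so sites bound too weakly to be called cannot be told apart from unbound ones. All peaks were ranked on the whole genome, and the mapping of reads from repeats and identical tRNA copies was not given. No paired analysis was possible because there was only 1 group.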

Other observations

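Peaks of very low signal in the X list were mostly second summits beside a stronger peak. Of the 25 X peaks with a signal under 50, 22 overlapped a stronger X peak, and the 23 X peaks that overlapped a stronger one had a median signal of 10.6, with values between 2.85 and 87.4. Runs of 8 thymines, common in the worm genome, were rare under X summits: TTTTTTTT, on either strand, was in 5 of 275 X windows (1.82%) and in 4.98% of autosomal peak windows, against 11.7% of all X windows and 12.7% of all autosomal windows. GAGAGAGA was in 4 of 275 X windows (1.45%) and in 2.11% of autosomal peak windows, against 0.553% of all X windows.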
